A study of Mus musculus with 9 samples.

Results

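The mu class is a family of cytosolic glutathione transferases, and the mouse genes Gstm1 to Gstm7 are its members described here. They were found by gene symbol in the deposited table of normalized expression values, which gave 7 of 37583 genes. The family was chosen by measured values, since Gstm1 was higher and Gstm2 lower in livers labelled as antibody-treated than in wild-type livers. The values of these 2 genes are therefore given as a description, without a test. The other 5 members belong by name alone, and their differences were tested.

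The RNA came from livers of 9 adult male C57Bl6 mice aged 16 to 20 weeks, all fasted for 6 h, in 3 groups of 3 animals. In the antibody-labelled group, Gcgr+/+ mice received, over 10 days, weekly intraperitoneal injections at 10 mg/kg of a monoclonal antibody, humanized, against the glucagon receptor. In the knockout-labelled group, Gcgr-/- mice received PBS. In the wild-type group, Gcgr+/+ mice received PBS. How Gcgr is disrupted in the Gcgr-/- mice is not in the labels. Each sample was a separate animal, so the spread between libraries of a group is a spread between mice.

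Glutathione transferases join the small peptide glutathione to electrophiles such as drug metabolites, products of lipid peroxidation and environmental toxins, which makes them more soluble and ready for export. Mu-class enzymes work as dimers of subunits from this family. In the mouse the genes stand side by side on chromosome 3, and liver is a tissue in which the class is abundant. Gstm1 encodes a main mu-class subunit of mouse liver, and the transcription factors NRF2, CAR and PXR are known to raise glutathione transferase genes in response to foreign compounds.

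The level of the targeted gene was at odds with the knockout label and was lowest in the antibody-labelled livers. Gcgr, which encodes the glucagon receptor, had 2271, 2496 and 1808 normalized units in the antibody-labelled libraries, 27365, 19656 and 21129 in the knockout-labelled libraries and a mean of 18521 ± 993 (SD, n = 3) in the wild-type libraries. The antibody-labelled mean was 11.8% of the wild-type mean, and the knockout-labelled mean was 123% of it. Whether the labels of these groups were exchanged, or the disrupted part of Gcgr lay outside what was counted, was not tested. The second possibility would bear on the knockout-labelled values only. Why Gcgr was low in the antibody-labelled livers was not tested either. An exchange would change which group each antibody-labelled and knockout-labelled value belongs to, so the libraries are called by their labels throughout. Per library, the normalized values added up to 42.4 M to 52.1 M, and an estimate from the spacing of low values put the reads assigned to genes between 11.0 M in knockout-labelled library 1 and 30.1 M in wild-type library 2. All 5 hepatocyte markers were above the floor of the table, with sums of 1132210 to 1257390 in antibody-labelled, 1195960 to 2079440 in knockout-labelled and 1157550 to 1385670 in wild-type libraries. None of the markers of Kupffer cells, endothelium, stellate cells, bile duct or lymphocytes passed the test in any comparison. Per comparison, 0.155% to 1.34% of all tested genes did. In whole liver, fewer cells of a type and less RNA per cell cannot be told apart.

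The 7 genes lie within 149.1 kb of chromosome 3 in the mm9 coordinates of the table, and all but Gstm5 are on the minus strand. In order of position they are Gstm5 (ENSMUSG00000004032, chr3:107698739-107701604), Gstm7 (ENSMUSG00000004035, chr3:107729252-107734735), Gstm6 (ENSMUSG00000068762, chr3:107741765-107746667), Gstm3 (ENSMUSG00000004038, chr3:107745251-107772201), Gstm2 (ENSMUSG00000040562, chr3:107784620-107789371), Gstm1 (ENSMUSG00000058135, chr3:107815173-107820891) and Gstm4 (ENSMUSG00000027890, chr3:107843326-107847812). A copy named Gstm2-ps1 (ENSMUSG00000091578) lies apart from the cluster on chromosome 5 (chr5:117082917-117083471). It is set beside the family because its sequence is close to that of Gstm1. The table marks Gstm2-ps1 as protein coding. The GENCODE M21 entry of that symbol, on the later build GRCm38, has another Ensembl identifier and is a processed pseudogene without introns.

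The coding sequences of the family are alike enough to raise the question of which gene a 50-base read belongs to. In GENCODE M21 (GRCm38), 5 of the 7 coding sequences are 657 bases long, that of Gstm5 is 675 and that of Gstm6 is 699, and each is split over 8 coding exons. Aligned coding identity over the 21 pairs ranged from 69.1% to 89.5%. Gstm1 and Gstm2 shared 86.0% of aligned bases and differed at 92. Gstm1 and Gstm3 were the closest pair of members, at 89.5%. Gstm2-ps1 was closer to Gstm1, at 97.9% with 14 different bases, than to Gstm2, at 84.8% with 100 different bases.

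Shown first is the ungapped 50-base stretch of the Gstm1 coding sequence with the fewest differences summed over the other members. A 50-base read from this stretch fits both Gstm1 and Gstm2. The stretch covers bases 203 to 252 of the Gstm1 coding sequence, in coding exon 4 (GRCm38 chr3:108016526-108016575, minus strand, in Gstm1 and chr3:107985254-107985303, minus strand, in Gstm2). Each line reads 5′ to 3′, and capitals mark bases that differ from Gstm1.
Gstm1: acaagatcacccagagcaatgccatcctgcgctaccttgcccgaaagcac
Gstm2: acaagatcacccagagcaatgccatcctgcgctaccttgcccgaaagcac
Gstm3: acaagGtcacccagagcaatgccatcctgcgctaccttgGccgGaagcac
Gstm4: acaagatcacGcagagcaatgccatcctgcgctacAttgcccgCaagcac
Gstm5: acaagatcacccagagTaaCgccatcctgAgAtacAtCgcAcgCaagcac
Gstm6: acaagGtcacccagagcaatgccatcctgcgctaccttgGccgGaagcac
Gstm7: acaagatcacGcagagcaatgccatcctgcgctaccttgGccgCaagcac
Gstm2-ps1: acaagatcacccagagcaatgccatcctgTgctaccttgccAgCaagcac
Gstm2 matched Gstm1 at every base of this stretch. Gstm3, Gstm4, Gstm6, Gstm7 and Gstm2-ps1 each differed at 3 bases and Gstm5 at 8. Gstm3 and Gstm6 carried the same 3 differences as each other.

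At the other end of the coding sequence the members can be told apart. The ungapped stretch with the most differences from Gstm1, summed over the other members, covers bases 605 to 654 of the Gstm1 coding sequence, in coding exon 8 (GRCm38 chr3:108012692-108012741, minus strand, in Gstm1 and chr3:107982052-107982101, minus strand, in Gstm2). It is shown in the same way because a read from it can be placed on a single member.
Gstm1: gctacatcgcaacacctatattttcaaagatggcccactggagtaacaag
Gstm2: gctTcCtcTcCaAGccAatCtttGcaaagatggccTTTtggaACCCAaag
Gstm3: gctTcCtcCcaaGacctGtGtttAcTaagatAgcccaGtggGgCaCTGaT
Gstm4: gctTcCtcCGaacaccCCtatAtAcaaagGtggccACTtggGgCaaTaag
Gstm5: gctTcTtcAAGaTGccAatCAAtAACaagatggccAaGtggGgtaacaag
Gstm6: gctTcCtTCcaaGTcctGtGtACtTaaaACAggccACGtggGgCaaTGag
Gstm7: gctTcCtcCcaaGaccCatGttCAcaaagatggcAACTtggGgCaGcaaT
Gstm2-ps1: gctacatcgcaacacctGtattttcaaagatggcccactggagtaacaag
Here Gstm2 differed from Gstm1 at 17 bases and the other members at 15 to 21. Gstm2-ps1 differed from Gstm1 at 1 base only.

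The longest run that Gstm1 and Gstm2-ps1 share is printed because reads of the deposited length fall inside it without a difference. It holds 127 bases, positions 261 to 387 of the Gstm1 coding sequence, and joins coding exons 5 and 6 (GRCm38 chr3:108015014-108016427, minus strand, intron left out).
Gstm1 and Gstm2-ps1: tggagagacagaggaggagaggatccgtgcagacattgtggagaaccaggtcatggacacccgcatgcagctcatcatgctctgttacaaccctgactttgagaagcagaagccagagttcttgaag
Gstm1 and Gstm2 shared no identical run longer than 60 bases. The run shared by Gstm1 and Gstm3 reached 112 bases, and that shared by Gstm3 and Gstm6 reached 125.

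Sharing was counted over every distinct 50-base stretch of a gene's annotated transcripts. Only stretches identical at every base were counted as shared. Where the read mapping allowed mismatches, a larger part of the reads than these shares could fit several genes. Of the 1520 stretches of Gstm1, 11 (0.724%) were also found in Gstm2, 8.16% in Gstm3 and 14.1% in Gstm2-ps1, and 81.1% occurred in no other gene. Of the 1680 stretches of Gstm2, 11 (0.655%) were also found in Gstm1, and 94.3% occurred in no other gene. Gstm3 was the member with the largest shared part, 28.8%. Of its stretches 16% were also in Gm8834, 11% in Gstm2-ps1, 9.83% in Gstm1 and 6.02% in Gstm6. Gm8834 also held 5.86% of the Gstm1 stretches, and the deposited values hold no gene of that symbol, so its level could not be given. None of the 1720 stretches of Gstm4 occurred in another gene, and 0.532% of those of Gstm7 did. Gstm2-ps1 shared 35.4% of its stretches with Gstm1, 22.9% with Gstm3 and none with Gstm2. The sources used here do not give how reads that fit several genes were counted. The values of Gstm1, Gstm3 and Gstm2-ps1 are therefore uncertain as values of single genes. Gstm2 shares few of its stretches, but its values are uncertain too, because Gstm1 is far more abundant. The 0.724% of Gstm1 stretches that Gstm2 also holds stands beside Gstm2 values of 0.893% to 4.29% of Gstm1 in the 9 livers. All these stretches stand for single reads. The libraries were sequenced as 50-base pairs, and how often a mate outside a shared stretch placed a pair was not tested.

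**Figure D1:**
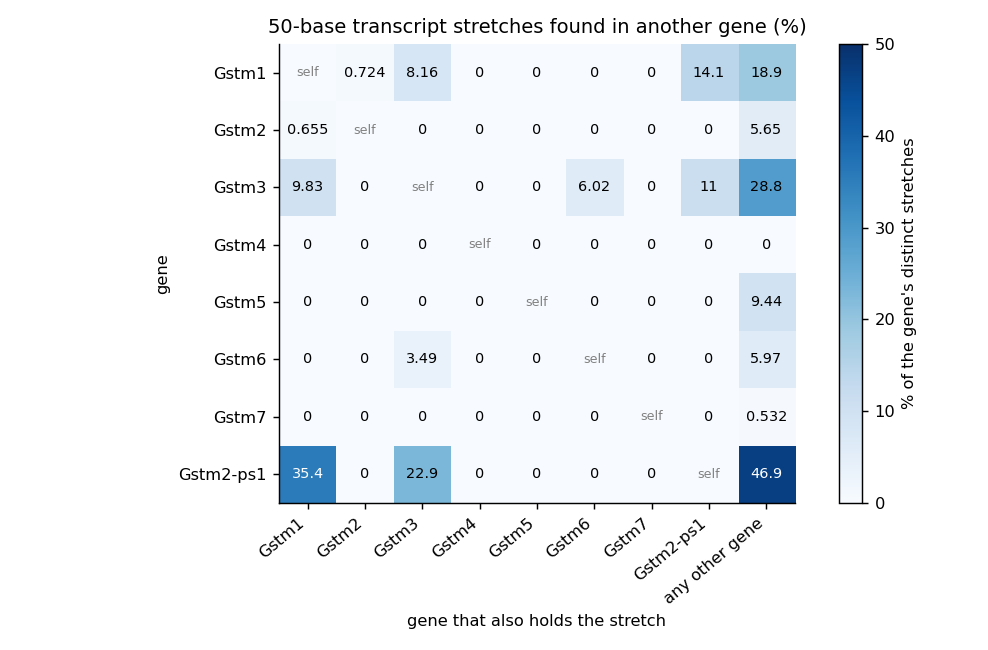
Share of a gene's distinct 50-base transcript stretches (rows, in percent) that also occur, identical at every base, in another gene (columns). Stretches are from GENCODE M21 transcripts, with those found in any other gene in the last column. Gstm1 and Gstm2 share under 1% of their stretches with each other, whereas Gstm2-ps1 shares 35.4% with Gstm1 and 22.9% with Gstm3.

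Overlapping gene models add a second uncertainty for some members. In the table's coordinates Gstm3 and Gstm6 overlap by 1417 bases on the same strand. The table's Gstm3 model, which spans 26951 bases, also overlaps Gm12494 by 10192 bases, but Gm12494 had values of at most 6.0 normalized units. The GENCODE M21 model of Gstm3 is shorter (GRCm38 chr3:107963696-107969283, 1311 exon bases). It does not reach the M21 model of Gstm6 (chr3:107938847-107943749). The shared stretches of Gstm3 were taken from the M21 model, so they may not describe the model that was counted. Gstm5 overlaps 4933431E20Rik by 393 bases on the opposite strand, and 9.44% of the Gstm5 stretches lie in that gene. Whether the libraries or the counting kept the strand is not stated in the labels, so reads in that overlap could not be assigned. The gene 4933431E20Rik had 274, 289 and 297 normalized units in antibody-labelled, 215, 143 and 183 in knockout-labelled and 181, 165 and 127 in wild-type livers, and did not pass the test in any comparison.

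Levels were compared between members per kilobase of exon, with the exon lengths of GENCODE M21. For Gstm3 the M21 model is shorter than the one counted, so its level per kb and its place in the order are uncertain. On this scale Gstm1 stood far above the rest in every group, with 25674 ± 787 normalized units per kb in antibody-labelled, 21829 ± 5797 in knockout-labelled and 13191 ± 1955 in wild-type livers (SD, n = 3 each). Gstm1 made up 82.7% of the family's level per kb in antibody-labelled, 77.3% in knockout-labelled and 72.9% in wild-type livers. Gstm4 came next in each group, with 2876, 3405 and 2017 units per kb in the antibody-labelled, knockout-labelled and wild-type group means. It was followed by Gstm7, with 892, 1274 and 1215, and Gstm6, with 643, 666 and 760 in the same order of groups.

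The last 3 places changed between groups. In antibody-labelled livers Gstm3 had 385, Gstm5 357 and Gstm2 234 units per kb. In knockout-labelled livers Gstm5 had 431, Gstm2 398 and Gstm3 241. In wild-type livers Gstm2 had 476, Gstm5 255 and Gstm3 189. Gstm2 thus stood last in the antibody-labelled group and first of these 3 in the wild-type group. The ranges of Gstm3 and Gstm5 overlapped in the antibody-labelled and wild-type groups. In the knockout-labelled group the range of Gstm5 overlapped those of Gstm2 and Gstm6. All members were measured in the same livers, so overlap of these ranges does not settle the order of those neighbours. Differences between members within a liver were not tested.

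Gstm1 was higher in both tested groups than in wild type. It had 36480.3, 38529 and 38446 normalized units in antibody-labelled livers, 40212, 23205 and 33044 in knockout-labelled livers and 22454, 16721 and 19116 in wild-type livers. Every antibody-labelled and every knockout-labelled library was above every wild-type library, and the antibody-labelled and knockout-labelled libraries overlapped. The group means were 37818 ± 1159.6, 32154 ± 8538 and 19430.3 ± 2880 (SD, n = 3 each), so the antibody-labelled mean was 1.95-fold and the knockout-labelled mean 1.65-fold that of wild type. On the log2 scale of the fit the differences were 0.97 for antibody-labelled against wild type, 0.70 for knockout-labelled against wild type and 0.27 for antibody-labelled against knockout-labelled, each with an SE of 0.18. The last of these was 0.45 without knockout-labelled library 1 and 0.05 without knockout-labelled library 2. The knockout-labelled libraries were spread most widely, and their highest value came from library 1, the library with the fewest reads and, at 2079440, the highest sum of hepatocyte markers of all libraries. Their part in the value was not tested. Without that library the difference of knockout-labelled against wild type was 0.52.

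Gstm2 was lower in the antibody-labelled livers and lay between in the knockout-labelled livers. It had 413, 344 and 419.7 normalized units in antibody-labelled, 529.9, 729.5 and 746 in knockout-labelled and 863, 718 and 819 in wild-type livers. All antibody-labelled libraries were below all libraries of both other groups, whereas 2 of the 3 knockout-labelled libraries lay within the wild-type range. The means were 392 ± 41.97, 668 ± 120.2 and 799.8 ± 74.3 (SD, n = 3 each), which made the antibody-labelled mean 49.1% and the knockout-labelled mean 83.6% of the wild-type mean. The log2 differences were -1.03 for antibody-labelled against wild type, -0.27 for knockout-labelled against wild type and -0.76 for antibody-labelled against knockout-labelled, each with an SE of 0.16. Knockout-labelled library 1 held the lowest value of its group, and without it the knockout-labelled difference from wild type was -0.11. By the estimate of reads, Gstm2 rested on 112 to 477 reads per library and Gstm1 on 8478 to 22282.

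**Figure D2:**
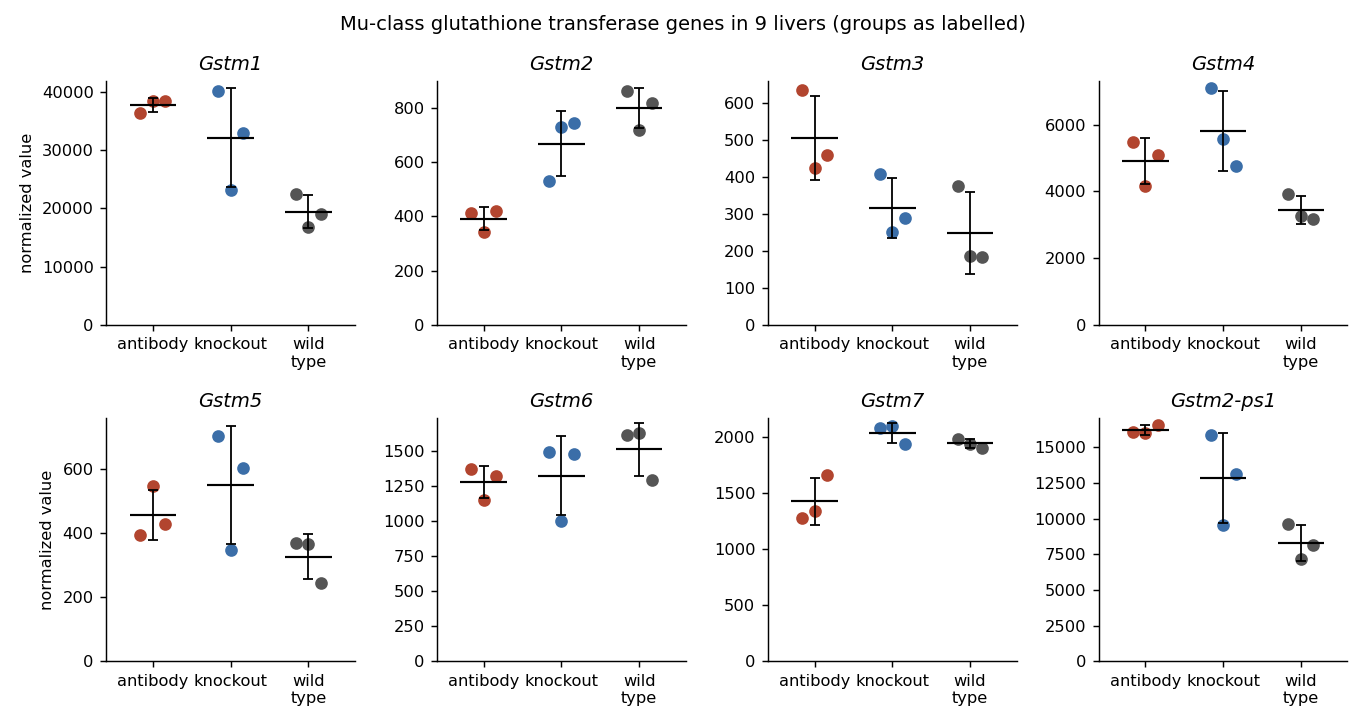
Normalized value of each of the 7 genes in each liver (points, y axis from 0), with the group mean as a line and its SD as error bars, for antibody-labelled, knockout-labelled and wild-type livers (n = 3 each), with Gstm2-ps1 in the last panel. Gstm1 lies between 36480.3 and 38529 in antibody-labelled livers and between 16721 and 22454 in wild-type livers, and Gstm2 between 344 and 419.7 and between 718 and 863 in the same groups.

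The ratio of the 2 genes was taken within each library, where any scaling of the library drops out. Gstm2 was 1.13%, 0.893% and 1.09% of Gstm1 in antibody-labelled, 1.32%, 3.14% and 2.26% in knockout-labelled and 3.84%, 4.29% and 4.28% in wild-type livers. The ranges of the 3 groups did not overlap. The log2 ratio of Gstm1 to Gstm2 averaged 6.60 ± 0.18, 5.57 ± 0.63 and 4.60 ± 0.09 in antibody-labelled, knockout-labelled and wild-type livers (SD, n = 3 each). It was 2.00 higher in antibody-labelled and 0.97 higher in knockout-labelled livers than in wild type. These ratios use the values by which the family was chosen and are likewise a description.

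Gstm2-ps1 followed Gstm1 library by library. It had 16074, 15964 and 16580.4 normalized units in antibody-labelled, 15831, 9559 and 13099 in knockout-labelled and 9634, 7155 and 8134 in wild-type livers. As a share of Gstm1 this was 44.1%, 41.4% and 43.1% in antibody-labelled, 39.4%, 41.2% and 39.6% in knockout-labelled and 42.9%, 42.8% and 42.6% in wild-type livers. Across all 9 livers the share stayed between 39.4% and 44.1%, while Gstm1 itself ranged from 16721 to 40212. With 35.4% of its stretches also in Gstm1, how many of these reads came from either gene was not tested. Gstm1 and Gstm2-ps1 together averaged 54024 ± 1301 in antibody-labelled, 44984 ± 11683 in knockout-labelled and 27738 ± 4128 in wild-type livers (SD, n = 3 each), 1.95-fold and 1.62-fold the wild-type mean, so the folds of Gstm1 were nearly the same with the copy added.

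**Figure D3:**
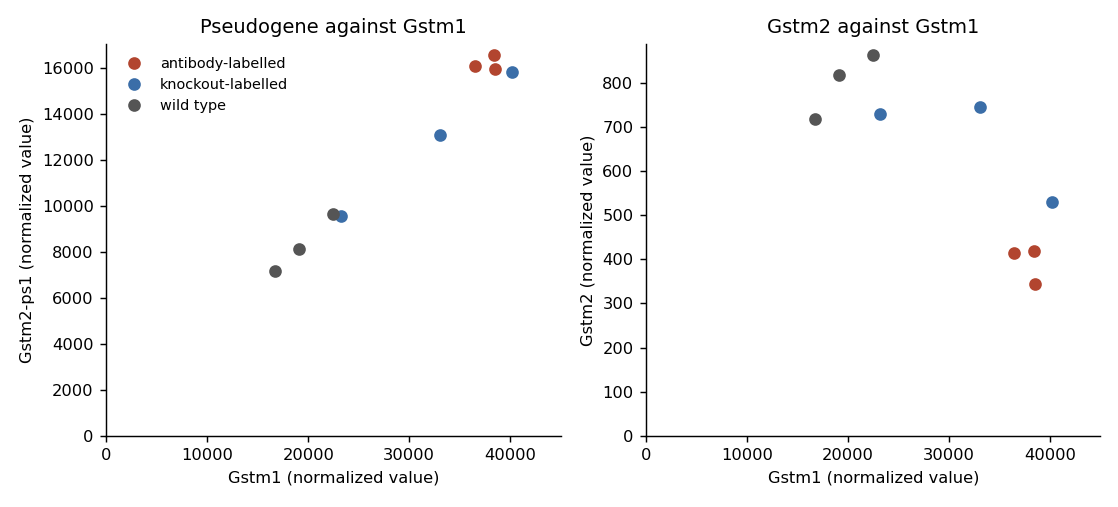
Gstm2-ps1 (left) and Gstm2 (right) against Gstm1 in the 9 livers, all axes in normalized units from 0, points coloured by labelled group. The Gstm2-ps1 points lie close to a line through the origin at 39.4% to 44.1% of Gstm1, whereas Gstm2 has its highest mean in the wild-type livers, where Gstm1 is lowest.

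How many of the reads counted for Gstm2 came from Gstm1 was not tested. Its lowest share of Gstm1, 0.893% in antibody-labelled library 2, was close to the 0.724% of Gstm1 stretches that both genes hold. That share is one of distinct stretches over all annotated transcripts of Gstm1, not of reads, and it leaves out the mates. Gm6665, which shares 2.32% of the Gstm2 stretches and 0.724% of the Gstm1 stretches, had 336, 349.9 and 348 normalized units in antibody-labelled, 411, 392 and 410.0 in knockout-labelled and 434, 323 and 407 in wild-type livers, with overlapping antibody-labelled and wild-type groups.

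None of the 5 other members passed the test in any comparison. Differences were tested with limma on log2(value + 1) over all 20029 genes with measurable values, with Benjamini-Hochberg adjustment over all of them and a threshold of 0.05. At that threshold 1.34% of all genes were called in antibody-labelled against wild type, 0.155% in knockout-labelled against wild type and 0.28% in antibody-labelled against knockout-labelled. At an unadjusted p under 0.05 the whole table held 2057, 2758 and 2666 genes in these comparisons. For Gstm3 to Gstm7 the unadjusted limma p-values were 0.00266, 0.00742, 0.0771, 0.169 and 0.00187 in the first comparison. They were 0.186, 0.000531, 0.0162, 0.23 and 0.568 in the second, and 0.0344, 0.165, 0.403, 0.845 and 0.000667 in the third. The genes called higher and lower were 0.714% and 0.624% of all genes in the first comparison, 0.0599% and 0.0949% in the second, and 0.19% and 0.0899% in the third. A gene that missed the threshold is not shown to be unchanged.

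**Figure D4:**
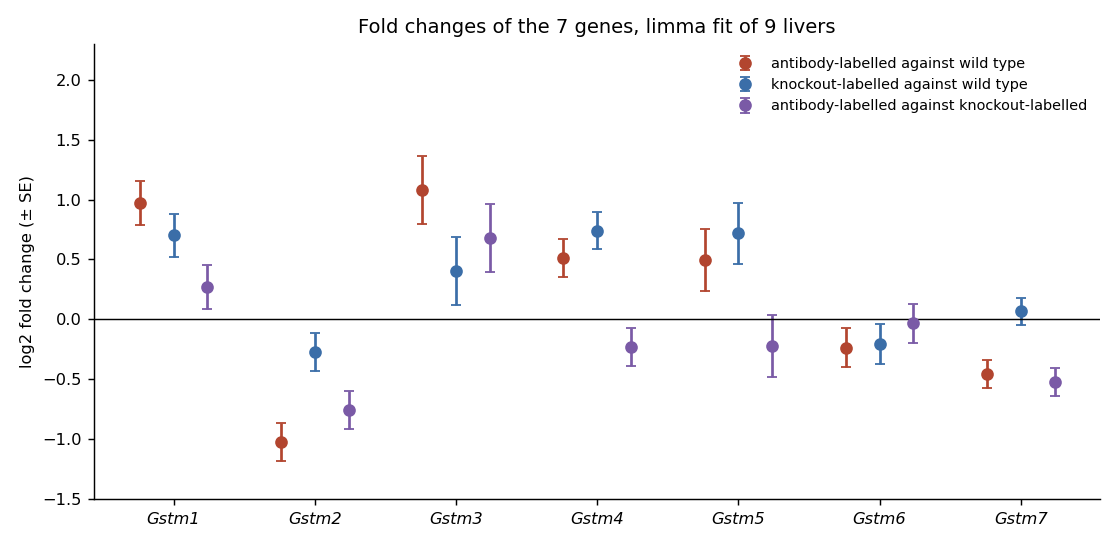
Log2 fold change (points) with its SE (bars) from the limma fit of 9 livers, for each of the 7 genes and each of the 3 comparisons. Gstm1 and Gstm2 are at 0.97 and -1.03 in antibody-labelled against wild type and Gstm3 is at 1.08 with the widest bars, while Gstm6 stays within 0.24 of 0 in all comparisons.

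Gstm3, the member closest to Gstm1 in sequence, had the largest positive difference of the 5. It had 633, 423 and 457 normalized units in antibody-labelled, 408, 251 and 289 in knockout-labelled and 376, 185 and 184 in wild-type livers. The antibody-labelled libraries were all above those of both other groups, and 1 wild-type library lay well above the other two. The log2 fold change was 1.08 ± 0.29 (SE) in antibody-labelled against wild type (limma adjusted p = 0.113), 0.40 in knockout-labelled against wild type (adjusted p = 0.573) and 0.68 in antibody-labelled against knockout-labelled (adjusted p = 0.329). Without wild-type library 1, the difference of antibody-labelled from wild type was 1.43 with an adjusted p of 0.028, within a range of 0.0122 to 0.379 over all alternatives. The difference of knockout-labelled from wild type was 0.74 without wild-type library 1, 0.23 without wild-type library 2 or 3 and 0.20 without knockout-labelled library 1. Gstm3 stood at 1.34% ± 0.35, 0.989% ± 0.106 and 1.25% ± 0.38 of Gstm1 in antibody-labelled, knockout-labelled and wild-type livers (SD, n = 3 each), and it shares 9.83% of its stretches with Gstm1. How far reads of Gstm1 entered the Gstm3 values was not tested.

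Gstm4, the second most abundant member and the member with no shared stretch, had higher means in both groups than in wild type. It had 5484, 4162 and 5083 normalized units in antibody-labelled, 7106, 5556 and 4774 in knockout-labelled and 3915, 3255 and 3159.5 in wild-type livers. All antibody-labelled and all knockout-labelled libraries were above all wild-type libraries. The log2 fold change was 0.51 ± 0.16 (SE) in antibody-labelled against wild type (limma adjusted p = 0.206), 0.74 ± 0.16 in knockout-labelled against wild type (adjusted p = 0.0793) and -0.23 ± 0.16 in antibody-labelled against knockout-labelled (adjusted p = 0.553). Without knockout-labelled library 1 the second of these was 0.59 and the third -0.08. The third was -0.37 without knockout-labelled library 3 and -0.12 without antibody-labelled library 2.

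Gstm5, which lies at the end of the cluster on the opposite strand and is the member least like Gstm1, had 395, 545 and 429 normalized units in antibody-labelled, 702, 346 and 603 in knockout-labelled and 368, 364 and 245 in wild-type livers. The antibody-labelled libraries were above the wild-type libraries, and the knockout-labelled libraries overlapped both. The log2 fold change was 0.50 ± 0.26 (SE) in antibody-labelled against wild type (limma adjusted p = 0.572) and 0.72 ± 0.26 in knockout-labelled against wild type (adjusted p = 0.242). Without wild-type library 3 the first of these was 0.30.

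Gstm6 and Gstm7 had lower means in antibody-labelled than in wild-type livers, unlike Gstm1. Gstm6 had 1368, 1148 and 1319 normalized units in antibody-labelled, 1495, 1003 and 1479 in knockout-labelled and 1616, 1628 and 1293 in wild-type livers, and its groups overlapped in every comparison. Its log2 fold changes were -0.24 in antibody-labelled and -0.21 in knockout-labelled against wild type (limma adjusted p = 0.739 and 0.613). The second of these was -0.02 with knockout-labelled library 2 left out and -0.32 with wild-type library 3 left out. Gstm7 had 1279, 1341 and 1664 in antibody-labelled, 2079.8, 2102 and 1937 in knockout-labelled and 1986, 1943 and 1908 in wild-type livers. All antibody-labelled libraries were below all others, while the knockout-labelled and wild-type libraries overlapped. The log2 fold change of Gstm7 was -0.46 ± 0.11 (SE) in antibody-labelled against wild type (limma adjusted p = 0.0921), -0.52 ± 0.11 in antibody-labelled against knockout-labelled (adjusted p = 0.0835) and 0.07 in knockout-labelled against wild type (adjusted p = 0.835). Without antibody-labelled library 3 the first of these was -0.57 with an adjusted p of 0.0483, within a range of 0.022 to 0.339 over all alternatives.

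Counted by overlap alone, 4 of the 5 other members had antibody-labelled and wild-type libraries that did not overlap, against 19.2% of all tested genes. For a single gene, a permutation test of 3 against 3 livers cannot give a p below 0.1. The count itself was not tested. In knockout-labelled against wild type the count was 1 of 5, against 16.4% of all genes. In antibody-labelled against knockout-labelled it was 2 of 5, against 17.2%. The median log2 fold change of the 5 other members was 0.50 in antibody-labelled against wild type, 0.40 in knockout-labelled against wild type and -0.22 in antibody-labelled against knockout-labelled, beside 0.00, -0.01 and 0.02 over all tested genes. The comparisons share libraries, so these counts and medians are not independent of each other.

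The summed value of the family was higher in both groups, and the larger part of that came from Gstm1. The 7 genes together had 46787 ± 919 normalized units in antibody-labelled, 42865 ± 9669 in knockout-labelled and 27705 ± 3487 in wild-type livers (SD, n = 3 each), which is 1.69-fold and 1.55-fold the wild-type mean. Without Gstm1 the sums were 8969 ± 877, 10712 ± 1395 and 8275 ± 774, or 1.08-fold and 1.29-fold. The family took 0.107%, 0.0900% and 0.0598% of all normalized units of the antibody-labelled, knockout-labelled and wild-type libraries.

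The genes that stand beside the cluster were compared as context, since neighbours on a chromosome can share regulation or reads. Of 17 genes other than the members within 150 kb of the cluster, 13 were tested. None of these passed in any comparison, where 0.155% to 1.34% of all tested genes did. The 13 were Csf1, Eps8l3, 4933431E20Rik, Gm12494, Gm12497, Gm12498, Gm12502, Ampd2, Gm12500, Gnat2, Gnai3, Gpr61 and Amigo1. Their log2 fold changes ran from -0.64 to 0.87 with a median of -0.06 in antibody-labelled against wild type, and from -0.64 to 0.28 with a median of -0.25 in knockout-labelled against wild type. The highest was 4933431E20Rik, the gene that overlaps Gstm5, at 0.87 (limma adjusted p = 0.0579).

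Genes outside the family were ranked by how closely their values followed Gstm1 or Gstm2, as the root mean square difference between log2 values over the 9 livers after each gene's own mean was taken away. This was done over 10008 genes, whose median difference from Gstm1 was 0.496. Closest to Gstm1 was Gstm2-ps1 at 0.053, which shares transcript stretches with it, followed at 0.139 to 0.161 by BC096441, Dapk2 (a calcium-regulated kinase), Ucp2 (a mitochondrial carrier) and Arl2bp (a binding partner of the small GTPase ARL2). Ucp2 had 4938 ± 549, 4255 ± 838 and 2599.8 ± 290 normalized units in antibody-labelled, knockout-labelled and wild-type livers (SD, n = 3 each). Closest to Gstm2 were Rundc3a at 0.153, Nt5e (which makes adenosine outside the cell), Mat1a (the liver enzyme that makes S-adenosylmethionine), Apon (an apolipoprotein) and Aass (the first enzyme of lysine breakdown) at 0.203. Mat1a had 154945 ± 5209 normalized units in antibody-labelled, 263951 ± 18962 in knockout-labelled and 307840.0 ± 34942 in wild-type livers (SD, n = 3 each). These genes were chosen for their pattern, so no test of it is given.

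The other glutathione transferases, including the alpha, pi, theta, zeta, omega, kappa and microsomal classes, were mostly not called. Of 18 such genes, 1 rose and none fell in antibody-labelled against wild type, where 1.34% of all tested genes were called. None passed in knockout-labelled against wild type (0.155% of all tested genes) or antibody-labelled against knockout-labelled (0.28%). The gene that rose was Mgst3, a membrane-bound microsomal glutathione transferase, with 776 ± 126 normalized units in antibody-labelled, 509 ± 194 in knockout-labelled and 300.0 ± 85.2 in wild-type livers (SD, n = 3 each), a log2 fold change of 1.39 ± 0.27 (SE) against wild type (limma adjusted p = 0.0299). That call was lost without wild-type library 2 or 3, knockout-labelled library 1 or any antibody-labelled library, at log2 fold changes of 1.23 to 1.48 and adjusted p-values of 0.067 to 0.124. It was also lost with no filter on low values (limma adjusted p = 0.059) and without trend and robust estimation (0.133), within 0.0109 to 0.133 over all alternatives. The most abundant, Mgst1, had 77299 ± 7839 units in antibody-labelled and 85712 ± 4408 in wild-type livers (SD, n = 3 each), Gsta3 had 35853 ± 7087 and 27759 ± 2699.8, and Gstz1, which acts in tyrosine breakdown, had 26613 ± 985 and 30320.1 ± 1541. The median log2 fold change of the 18 genes was 0.21 in antibody-labelled and 0.18 in knockout-labelled against wild type.

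The genes that supply and use glutathione held no call, where 0.155% to 1.34% of all tested genes were called per comparison. None of 18 genes of glutathione synthesis, recycling and peroxidases passed in any comparison, with median log2 fold changes of 0.11 in antibody-labelled and 0.18 in knockout-labelled against wild type. Gclc, which catalyses the rate-limiting step of glutathione synthesis, had 24229 ± 6281 normalized units in antibody-labelled and 15974 ± 1149 in wild-type livers, Gpx1, a glutathione peroxidase, 43875 ± 2467 and 44749 ± 585, and the peroxiredoxin Prdx6 20846 ± 2251 and 23159 ± 2731 (SD, n = 3 each). None of 18 genes of conjugate export and breakdown passed either, with medians of -0.05 and -0.03. Among these Abcc3, an export pump for conjugates, had 49034 ± 1642 in antibody-labelled and 32763 ± 4337 in wild-type livers, Abcc2, the pump on the bile side, 22810 ± 1910.0 and 24371 ± 2614, and Oplah, which recycles a product of glutathione breakdown, 14062 ± 1359 and 18801 ± 1297 (SD, n = 3 each).

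The lists for the regulators known to act on glutathione transferase genes each held 1 call in antibody-labelled against wild type. In that comparison 1.34% of all tested genes were called. The lists held no call in the other comparisons, where 0.155% and 0.28% of all tested genes were called. Of 28 regulators and targets of NRF2, the sensor of electrophile stress, Tkt rose. Tkt encodes transketolase of the pentose phosphate pathway and had 9874 ± 785 normalized units in antibody-labelled, 8324 ± 1492 in knockout-labelled and 5871 ± 315 in wild-type livers (SD, n = 3 each), with a log2 fold change of 0.75 ± 0.13 (SE) against wild type (limma adjusted p = 0.0162). The call was lost without wild-type library 1 or 2 or antibody-labelled library 1 or 3, at adjusted p-values of 0.0644 to 0.0905, and without trend and robust estimation (limma adjusted p = 0.104), within 0.0016 to 0.104 over all alternatives. The median of the list was 0.29, beside 0.002 over all tested genes, and 21 of its 28 genes had a positive log2 fold change. In knockout-labelled against wild type the median was 0.22, beside -0.01, and 24 of 28 were positive. In antibody-labelled against knockout-labelled the median was 0.024, beside 0.024, and 15 of 28 were positive. The abundant NRF2 targets Fth1 (ferritin heavy chain), Abcc3 and Ephx1 (microsomal epoxide hydrolase) did not pass, and Ephx1 had 41935 ± 5996 in antibody-labelled and 33872 ± 3843 in wild-type livers (SD, n = 3 each).

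Of 25 regulators and targets of CAR and PXR, the receptors that respond to drugs, Por fell. Por encodes the reductase that passes electrons to cytochromes P450. It had 31013 ± 4148 normalized units in antibody-labelled, 52854 ± 12614 in knockout-labelled and 56406 ± 9509 in wild-type livers (SD, n = 3 each), with a log2 fold change of -0.86 ± 0.18 (SE) against wild type (limma adjusted p = 0.0423). The call was lost without any single wild-type or antibody-labelled library and without knockout-labelled library 3, at log2 fold changes of -0.98 to -0.74 and adjusted p-values of 0.0582 to 0.181. It was also lost with a pseudocount of 10 (limma adjusted p = 0.0551), with no filter on low values (0.0769) and without trend and robust estimation (0.166), within 0.00772 to 0.181 over all alternatives. The median of the list was 0.06. Cyp3a11, a main PXR target, had 179751 ± 22424 in antibody-labelled and 132880.0 ± 21116 in wild-type livers, and Ugt1a1 48544 ± 2861 and 45603 ± 3183 (SD, n = 3 each), and neither passed.

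The promoters of the family were searched for short motifs in the RefSeq windows of build GRCm38.p6, over the 250 bases before each start and on both strands. The core of the antioxidant response element, TGACNNNGC, was found in 2 of 12 windows, 1 each of Gstm5 and Gstm7, and in 10.2% of all 32851 promoters of the table. The Gstm7 window with the match (chr3:107931615-107931864, minus strand) reaches into the GENCODE M21 model of the gene, which begins at 107931817. The other Gstm7 window held no match. Windows of the same gene can overlap, as in Gstm4, so the 12 windows are not independent. The cAMP response element TGACGTCA, its part TGACG and the nuclear receptor sequence AGGTCA were in none of the 12 windows, and in 1.55%, 17.8% and 14% of all promoters. A match or its absence in these windows says nothing about binding in these livers.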

How the data were processed

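Per the submitters' processing notes, the authors used FastQC, TopHat2 2.0 and SAMtools with mouse build mm9; per the labels' protocols the libraries were poly(A)-selected and sequenced as 50-base pairs. No source used here gives the tools for counting and scaling. The authors deposited 1 table with a normalized signal per Ensembl gene and library, called normalized units here, with a floor of 1. Low values were not whole multiples of 1 read often enough to recover reads, so no count test was run. Genes above 1 in at least 3 of 9 libraries were tested (20029; 17554 were not). Values were taken as log2(value + 1), which understates changes of low genes, and fitted over 9 libraries with limma 3.58.1 in R 4.3.3 (group only, eBayes with trend and robust estimation, two-sided, Benjamini-Hochberg over all tested genes, threshold 0.05). Fold changes of group means use the deposited values. The alternatives were another pseudocount, no filter, rescaling by median ratios, library weights, eBayes without trend, 6 libraries per fit, a replicate block and each library left out.

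Sequences came from GENCODE M21 transcripts, aligned with MAFFT 7.526, and promoters from RefSeq. The genes named are the 7 members, the 5 most alike genes of Gstm1 and Gstm2 with a mean at or above the median of tested genes, the tested neighbours within 150 kb, and of each list the members past the threshold and the 3 most abundant. All 140 list symbols were matched. The members, lists and tests were chosen with earlier results of these data known.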

Additional observations from a re-analysis of the deposited data

How the results depend on the processing

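The log2 fold changes of Gstm1 and Gstm2 kept their sign in all 3 comparisons under all 16 alternatives. In antibody-labelled against wild type they ranged from 0.87 to 1.08 for Gstm1 and from -1.10 to -0.94 for Gstm2. In knockout-labelled against wild type they ranged from 0.52 to 0.92 and from -0.36 to -0.11, and in antibody-labelled against knockout-labelled from 0.05 to 0.45 and from -0.92 to -0.66. The ends of these ranges came from leaving out single libraries, including knockout-labelled library 1, which had the fewest reads. No filter, eBayes without trend, 6 libraries per fit and the block cannot move these estimates. Leaving out a library of the group not compared cannot move them either. Both genes were chosen by these values, so the kept signs are a description.

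Some results for other members depended on a setting. In antibody-labelled against wild type, Gstm3 passed with the replicate number as a block (1.08, limma adjusted p = 0.0122) and without wild-type library 1 (left-out range 0.91 to 1.43), within 0.0122 to 0.379 over all alternatives. Gstm7 passed with library weights (-0.48, limma adjusted p = 0.022) and without antibody-labelled library 3 (left-out range -0.57 to -0.38), within 0.022 to 0.339. The count of members past the threshold other than Gstm1 and Gstm2, 0 in that comparison, was 1 with library weights, 1 with the block and 0 to 1 with a library left out. Gstm6 in antibody-labelled against knockout-labelled, -0.03, turned to 0.066 when knockout-labelled library 1 was left out, 0.058 when library 3 of that group was, and 0.043 when antibody-labelled library 2 was, with a left-out range of -0.221 to 0.066 (limma adjusted p = 0.926, 0.911 and 0.966, within 0.418 to 0.987). The cause was not tested.

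The count of all genes called varied more. In knockout-labelled against wild type the 31 genes became 3 with no filter, 0 without trend and robust estimation in limma (2758 genes at an unadjusted p under 0.05 in the main fit), 15 with only the 6 libraries compared and 4 to 145 with a library left out. In antibody-labelled against wild type the 268 became 666 with library weights, 71 without trend and robust estimation and 105 to 290 with a library left out. In antibody-labelled against knockout-labelled the 56 became 23 with a pseudocount of 10, 3 with no filter, 29 after rescaling, 19 with library weights, 1 without trend and robust estimation, 16 with only the 6 libraries compared and 1 to 82 with a library left out. The fit with no filter left out 15160 genes at the floor in all 9 libraries, which have no spread.

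Same-numbered libraries of different groups correlated between -0.136 and 0.126 in their deviations from the group means. Of 18 comparisons of a library with the 3 libraries of another group, 9 were best with its own number. These values do not settle whether the numbers pair the mice. The main fit did not take them as pairs, and the block is given as an alternative. The block changed no other call named for the members. The alternatives for Mgst3, Tkt, Por, the lists and the neighbours were added after the data were seen: no list count went above 3 and no count of neighbours above 2.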
